A study of Mus musculus with 22 samples.

Results

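The genes of V(D)J recombination and of the end joining that completes it were followed in sorted gamma-delta thymocytes. The 9 genes were Rag1, Rag2 and Dntt, which act on the receptor loci, and Xrcc5, Xrcc6, Prkdc, Dclre1c, Xrcc4 and Lig4, which encode end-joining proteins. A gene was represented by a probe set annotated with its symbol alone, and by the one of highest mean where there were several. By this rule 7 of the 9 genes had a probe set, among 14860 genes in all, and 6 of them passed the filter on low values, among 8545. The cells came from the thymus of female C57BL/6 mice aged 8 weeks, with no treatment. Sorting split them by gamma chain, into Vgamma1.1+ and Vgamma2+ cells, and by the maturation markers CD24 and CD73. Total RNA of each sample was hybridised to 1 Affymetrix mouse exon array, which gave 22 arrays in 6 groups. There were 4 arrays of Vgamma1.1+ CD24+CD73- cells, 3 of CD24+CD73+ and 4 of CD24-CD73+, and for Vgamma2+ cells 3, 4 and 4 in the same order. The replicates are called biological in the labels, but their animals are not described, and a p-value here covers only the spread among the samples of a group.

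V(D)J recombination builds the genes of antigen receptors from separate segments during lymphocyte development. The RAG1 and RAG2 proteins cut the DNA beside the segments, Artemis (encoded by Dclre1c) opens the hairpin ends in complex with the kinase DNA-PKcs (encoded by Prkdc), and terminal transferase (encoded by Dntt) adds bases that no template specifies. The ends are held by the Ku proteins (Xrcc6 encodes Ku70 and Xrcc5 encodes Ku80) and are sealed by DNA ligase IV (Lig4) with its partner XRCC4. RAG1, RAG2 and terminal transferase are made in immature lymphocytes, whereas the end-joining proteins repair broken chromosomes in cells of all kinds. In the thymus CD24 is carried by immature cells, and CD73 is induced by signals through the gamma-delta receptor. The stages are therefore taken in the order of gaining CD73 (the first step) and then losing CD24 (the second).

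The promoters of Dntt, Lig4 and Xrcc6 are shown because these were the genes that fell from the CD24+CD73- to the CD24-CD73+ stage. Each is the 250 bases before the transcript start that the RefSeq promoter table gives for the gene, 5′ to 3′ on its strand, on the build GRCm38.p6. For Xrcc6 the RefSeq gene span begins further upstream, so this window lies inside that span, and it overlaps the end of the span of Desi1. Capitals mark matches, on either strand, to CAGCTG and CACCTG (E-boxes), TGATAA and AGATAA (bound by GATA factors), CCAAT (bound by NF-Y), TATAAA (the TATA box), GGGCGG (a GC box) and CGGAAG (an Ets motif). A match on the opposite strand appears as the reverse complement, as for the Ets motif of Lig4, and no matches overlap in these windows.
Dntt, chr19:41029025-41029274, plus strand: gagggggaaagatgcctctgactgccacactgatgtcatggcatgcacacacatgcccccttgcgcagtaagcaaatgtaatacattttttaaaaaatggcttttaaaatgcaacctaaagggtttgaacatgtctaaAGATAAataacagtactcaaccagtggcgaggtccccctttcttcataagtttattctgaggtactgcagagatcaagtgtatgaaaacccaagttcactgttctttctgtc
Lig4, chr8:9977681-9977930, minus strand: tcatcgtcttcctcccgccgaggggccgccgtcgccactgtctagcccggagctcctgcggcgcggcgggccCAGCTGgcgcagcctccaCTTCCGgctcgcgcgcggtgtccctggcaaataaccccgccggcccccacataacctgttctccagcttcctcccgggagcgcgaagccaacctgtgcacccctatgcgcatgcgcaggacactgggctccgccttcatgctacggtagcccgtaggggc
Xrcc6, chr15:82016119-82016368, plus strand: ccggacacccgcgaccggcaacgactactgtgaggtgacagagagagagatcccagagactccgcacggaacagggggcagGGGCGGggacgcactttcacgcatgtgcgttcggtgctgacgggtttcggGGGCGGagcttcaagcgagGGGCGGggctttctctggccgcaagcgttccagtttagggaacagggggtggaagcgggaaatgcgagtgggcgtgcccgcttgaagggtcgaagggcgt

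The Dntt window held AGATAA, which 9.99% of 32851 RefSeq promoter windows of this length hold. The Lig4 window held CAGCTG and CGGAAG, found in 13% and 13.6% of all windows, and a second RefSeq start of Lig4 (chr8:9976312-9976561) had both as well. That second window, which is not shown, also held GGGCGG, at 141 and 16 bases before its start. The Xrcc6 window held GGGCGG 3 times, a motif of 32.7% of all windows. The windows differed in base composition, with a GC content of 41.6% for Dntt, 70% for Lig4 and 65.2% for Xrcc6 against a median of 52.4%. No motif was common to all 3 windows. These matches describe the letters alone, and binding was not measured.

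All values are log2 expression from RMA, as deposited. Log2 values of different genes come from different probes and are not set against each other. The spread of values within an array was smaller on replicate 1 of Vgamma1.1+ CD24-CD73+ (SD 1.61) and on replicate 3 of Vgamma2+ CD24+CD73+ (SD 1.71) than on the other 20 arrays (1.81 to 2.09). The sorted cells carried the transcripts of T cells, with Cd3d between 10.6 and 11.7 on every array. Nt5e, which encodes CD73, followed the sort: its group means were 3.75 and 3.42 at CD24+CD73- and lay between 7.22 and 8.33 at the later stages. Cd24a, which encodes CD24, had no probe set of its own, so the loss of CD24 was not checked in this way. In sorted bulk RNA, fewer cells that carry a transcript and less of it per cell cannot be told apart.

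Of the 6 tested genes, 3 fell over the course from CD24+CD73- to CD24-CD73+ in both subsets (Dntt, Lig4 and Xrcc6), and none rose. Over this course 13.6% of all tested genes fell and 9.71% rose in Vgamma1.1+ cells at an adjusted p under 0.05 in limma, and 12.9% fell and 11.1% rose in Vgamma2+ cells. In the first step, from CD24+CD73- to CD24+CD73+, 2 of 6 fell in Vgamma1.1+ cells (Dntt and Lig4), where 3.45% of all tested genes fell. In the same step 3 of 6 fell in Vgamma2+ cells (Dntt, Lig4 and Xrcc6), where 6.41% did. In the second step, from CD24+CD73+ to CD24-CD73+, 2 of 6 fell in Vgamma1.1+ cells (Lig4 and Xrcc6) against 6.92% of all genes, and 1 of 6 in Vgamma2+ cells (Lig4) against 9.91%. The median difference of the 6 genes over the course was -0.84 in Vgamma1.1+ and -0.74 in Vgamma2+ cells, beside -0.04 and -0.03 over all tested genes. Each step shares a group of arrays with the course and with the other step, so these counts are not separate evidence.

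**Figure D1:**
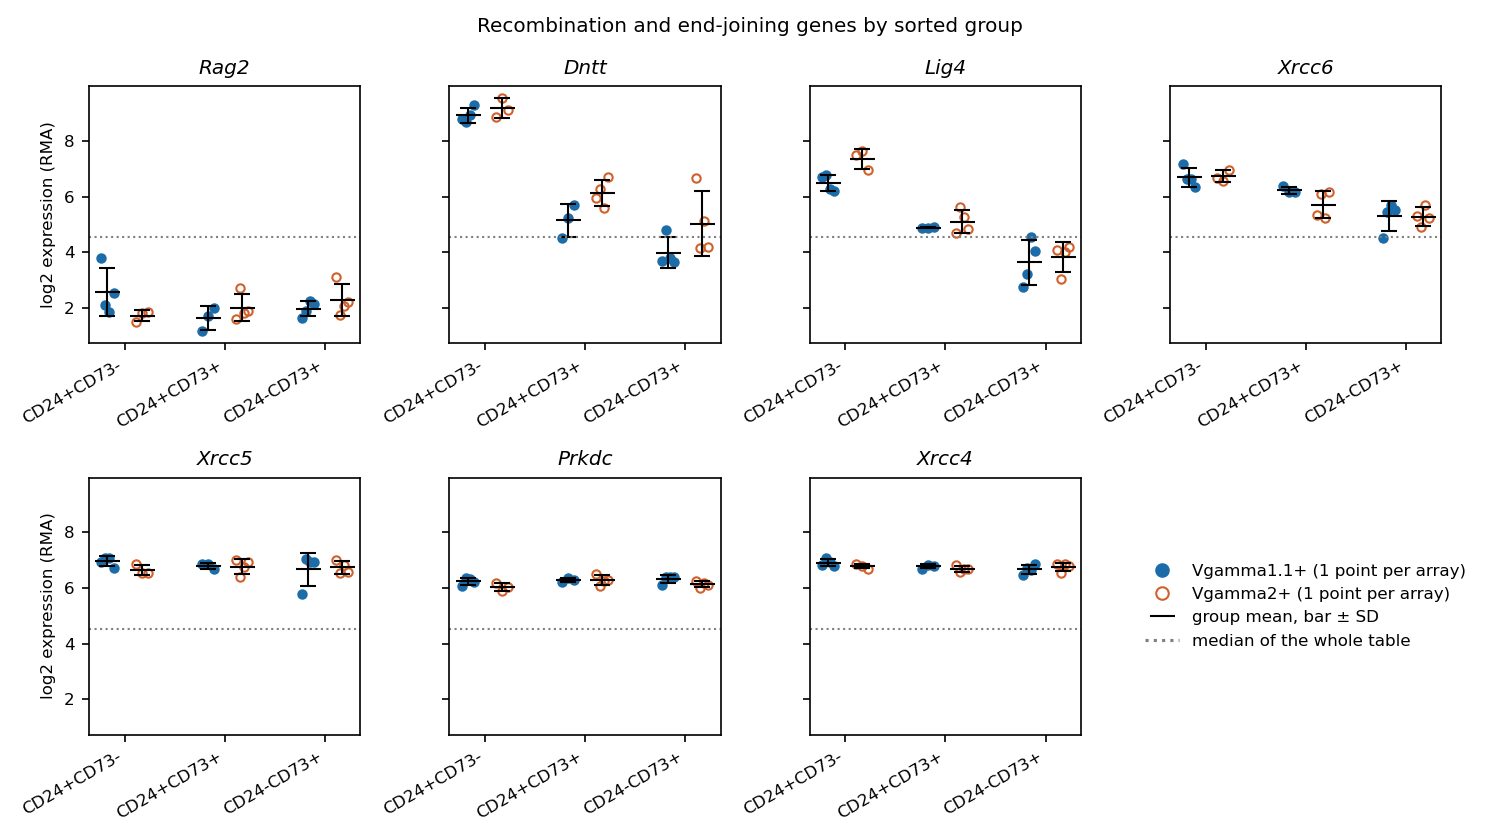
Log2 expression (RMA, y axis) of the 7 genes with a probe set of their own, with 1 point per array, by sorted stage (x axis), for Vgamma1.1+ (filled) and Vgamma2+ (open) cells. Black bars are group means with SD, and the dotted line is the median of the whole table (4.55). Rag2 lies under the line on all 22 arrays, Dntt and Lig4 drop from stage to stage, and the group means of Xrcc5, Prkdc and Xrcc4 lie between 6.04 and 6.95.

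Rag2, a subunit of the recombinase that makes the cut, gave no signal over the median of the table (4.55) on any of the 22 arrays. In Vgamma1.1+ cells its means were 2.57 ± 0.87 (SD, n = 4) at CD24+CD73-, 1.63 ± 0.43 (n = 3) at CD24+CD73+ and 1.98 ± 0.28 (n = 4) at CD24-CD73+. In Vgamma2+ cells they were 1.73 ± 0.20 (n = 3), 2.01 ± 0.49 (n = 4) and 2.28 ± 0.58 (n = 4). The highest value, 3.81, was on replicate 1 of Vgamma1.1+ CD24+CD73-, and the 6 groups overlapped. Rag2 was left out by the filter. Without a filter, limma called it in none of the 12 comparisons, with the smallest adjusted p at 0.232 for the first step in Vgamma1.1+ cells (-0.94). Rag1, the other subunit, had only a probe set that also lists the neighbouring gene Iftap, so no value is given for it. Dclre1c, which encodes the hairpin-opening nuclease, had no probe set of its own and was not analysed here.

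Dntt, the terminal transferase, was high in CD24+CD73- cells and fell at the step at which CD73 appears. In Vgamma1.1+ cells its log2 values were 8.78, 8.67, 8.92 and 9.27 at CD24+CD73-, 4.51, 5.25 and 5.69 at CD24+CD73+, and 3.68, 4.81, 3.80 and 3.64 at CD24-CD73+. In Vgamma2+ cells they were 8.85, 9.55 and 9.11, then 5.96, 6.28, 5.59 and 6.71, and then 6.67, 4.15, 5.12 and 4.19. Every array of the first stage lay above every array of the later stages in both subsets, whereas the second and last stages overlapped in both. In the first step 12.4% of all tested genes had ranges apart in this direction in Vgamma1.1+ cells and 13.4% in Vgamma2+ cells. The group means ordered the groups as Vgamma2+ CD24+CD73- (9.17 ± 0.35, SD, n = 3), Vgamma1.1+ CD24+CD73- (8.91 ± 0.26, n = 4), Vgamma2+ CD24+CD73+ (6.13 ± 0.48, n = 4), Vgamma1.1+ CD24+CD73+ (5.15 ± 0.60, n = 3), Vgamma2+ CD24-CD73+ (5.03 ± 1.18, n = 4) and Vgamma1.1+ CD24-CD73+ (3.98 ± 0.56, n = 4). The ranges of neighbours in this order overlapped, except between the CD24+CD73- groups and the rest.

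Over the first step Dntt fell by 3.76 ± 0.45 (SE) in Vgamma1.1+ cells, a 13.5-fold difference (adjusted p = 5.8e-06, limma). In Vgamma2+ cells it fell by 3.04 ± 0.45, or 8.22-fold (adjusted p = 5.7e-05). The first step made up 76.3% of the log2 change from first to last stage in Vgamma1.1+ and 73.5% in Vgamma2+ cells. The second step did not pass, with differences of -1.17 ± 0.45 (adjusted p = 0.105) and -1.10 ± 0.42 (adjusted p = 0.0696), although with array weights both did (-1.48, adjusted p = 7.5e-04, and -1.57, adjusted p = 0.0087). In Vgamma2+ cells that call turned on 1 array: without replicate 1 of CD24-CD73+, where Dntt read 6.67, the second step was -1.64 (adjusted p = 9.4e-04). Over the whole course Dntt fell 30.4-fold in Vgamma1.1+ cells (-4.93 ± 0.42, adjusted p = 1.3e-08) and 17.6-fold in Vgamma2+ cells (-4.14 ± 0.45, adjusted p = 4.4e-07). At the last stage 5 of the 8 arrays read under the median of the table (4.55), so the low end of these folds rests on dim signals.

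Lig4, the ligase that seals the break, fell at both steps in both subsets. In Vgamma1.1+ cells it read 6.71, 6.76, 6.28 and 6.20 at CD24+CD73-, 4.87, 4.89 and 4.89 at CD24+CD73+, and 2.77, 3.22, 4.55 and 4.06 at CD24-CD73+. In Vgamma2+ cells it read 7.51, 7.63 and 6.94, then 4.69, 5.61, 5.26 and 4.83, and then 4.07, 3.04, 4.02 and 4.18. The 3 stages of a subset did not overlap, in either subset. In the second step 14.3% of all tested genes had ranges apart in this direction in Vgamma1.1+ and 9.14% in Vgamma2+ cells. The order of the group means was by stage, with Vgamma2+ above Vgamma1.1+ within each stage (7.36 and 6.49, 5.10 and 4.88, 3.83 and 3.65), and the subsets overlapped at the second and last stages.

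In the first step Lig4 fell by 1.60 ± 0.34 in Vgamma1.1+ cells (adjusted p = 0.0033, limma) and by 2.26 ± 0.34 in Vgamma2+ cells (adjusted p = 6.5e-05). In the second step it fell by 1.23 ± 0.34 in Vgamma1.1+ cells (adjusted p = 0.0199), and the Vgamma2+ difference was -1.27 ± 0.31 (adjusted p = 0.00525). Over the course this came to a 7.15-fold fall in Vgamma1.1+ cells (-2.84 ± 0.31, adjusted p = 5.7e-07) and to an 11.5-fold fall in Vgamma2+ cells (-3.53 ± 0.34, adjusted p = 7.3e-08). The first step held 56.6% and 64% of that change. At the last stage 7 of the 8 Lig4 values lay under the median of the table (4.55) and the other at it, so these folds too rest on dim signals. The call of the second step in Vgamma1.1+ cells was lost without any 1 of the 3 CD24+CD73+ arrays or without replicate 1 or 2 of CD24-CD73+ (adjusted p from 0.0609 to 0.0684). Without the 2 arrays of narrow spread the difference was -0.94 (adjusted p = 0.0642).

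Xrcc6, which encodes the Ku70 subunit, fell over the course as well. Its values in Vgamma1.1+ cells were 7.16, 6.63, 6.62 and 6.36 at CD24+CD73-, 6.37, 6.15 and 6.17 at CD24+CD73+, and 4.52, 5.44, 5.71 and 5.51 at CD24-CD73+. In Vgamma2+ cells they were 6.67, 6.57 and 6.96, then 5.32, 6.09, 5.25 and 6.15, and then 5.30, 4.92, 5.71 and 5.22. The first and last stages did not overlap in either subset, while the first 2 stages overlapped in Vgamma1.1+ cells and the last 2 in Vgamma2+ cells. Over the course 14.5% of all tested genes had ranges apart in this direction in Vgamma1.1+ and 18.5% in Vgamma2+ cells. The group means were 6.73 (Vgamma2+) and 6.69 (Vgamma1.1+) at the first stage, 6.23 (Vgamma1.1+) and 5.70 (Vgamma2+) at the second, and 5.30 (Vgamma1.1+) and 5.28 (Vgamma2+) at the last. Over the course Xrcc6 fell by 1.40 ± 0.25 in Vgamma1.1+ (2.63-fold, adjusted p = 2.0e-04, limma) and the Vgamma2+ difference was -1.45 ± 0.27 (2.73-fold, adjusted p = 3.0e-04).

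The step that passed was not the same in the subsets. In Vgamma1.1+ cells the second step passed (-0.93 ± 0.27, adjusted p = 0.0254) and the first did not (-0.46 ± 0.27, adjusted p = 0.405), although with array weights it did (-0.42, adjusted p = 0.0373). In Vgamma2+ cells the first step passed (-1.03 ± 0.27, adjusted p = 0.0123) and the second did not (-0.42 ± 0.25, adjusted p = 0.268). The test of the difference itself did not separate the subsets, at 0.57 ± 0.38 for the first step (adjusted p = 0.633) and -0.52 ± 0.36 for the second (adjusted p = 0.441). The lowest array of the last Vgamma1.1+ group, at 4.52, was the one of narrowest spread. Without both arrays of narrow spread the second step in Vgamma1.1+ cells was -0.68 (adjusted p = 0.0530). In limma its call was also lost without replicate 1 of CD24-CD73+ alone (-0.68, adjusted p = 0.0827). The same held without any 1 of the 3 CD24+CD73+ arrays (adjusted p from 0.0613 to 0.111). The first step in Vgamma2+ cells was lost without replicate 3 of CD24+CD73- (-0.92, adjusted p = 0.0737). In RefSeq the span of Xrcc6 overlaps that of Desi1, and the probe sets of the 2 genes had a Pearson r of 0.976 over the 22 arrays. Whether they share signal was not tested.

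**Figure D2:**
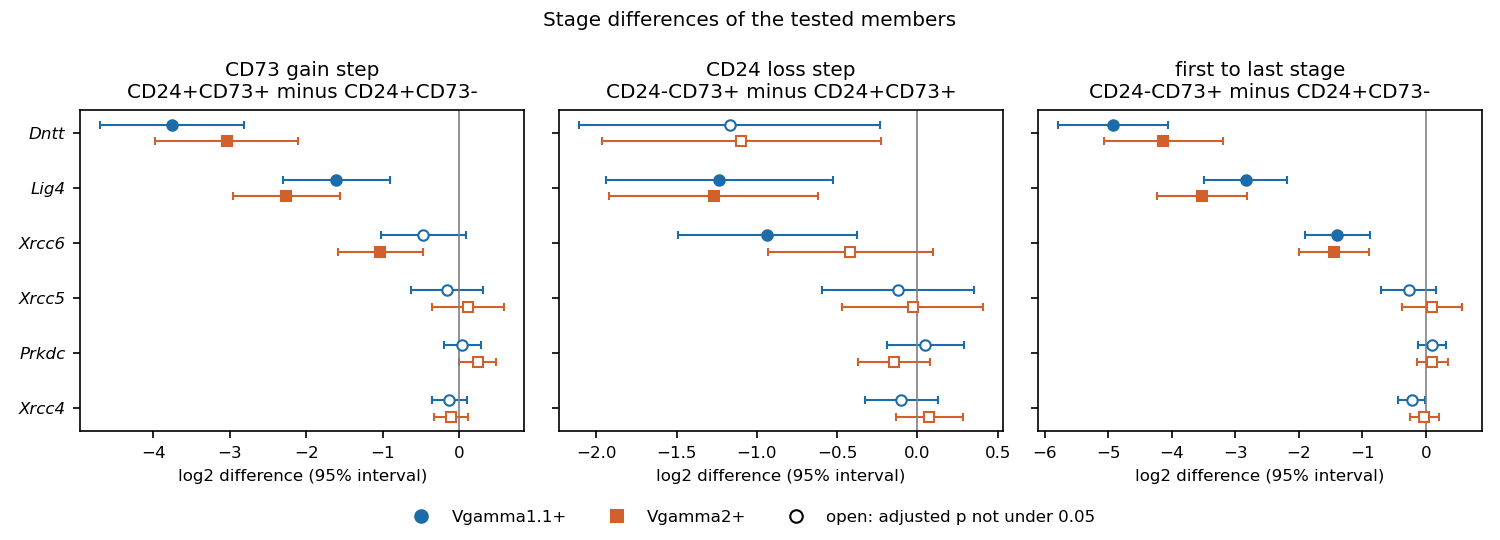
Log2 difference (x axis) with its 95% interval for the 6 tested genes (y axis) in the first step, the second step and the whole course, in Vgamma1.1+ (circles) and Vgamma2+ (squares) cells. Filled symbols had an adjusted p under 0.05. Dntt, Lig4 and Xrcc6 lie left of 0 in all 3 panels, and the estimates of Xrcc5, Prkdc and Xrcc4 lie closer to 0, with the interval of Xrcc5 reaching -0.71 over the Vgamma1.1+ course.

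The remaining end-joining genes passed in none of the 12 comparisons. Xrcc5, which encodes Ku80, had group means between 6.65 and 6.95. Its lowest value was 5.79, on replicate 1 of Vgamma1.1+ CD24-CD73+, where the other 3 arrays read 6.94 to 7.04. Over the course it differed by -0.27 in Vgamma1.1+ cells (95% interval -0.71 to 0.16) and by 0.09 in Vgamma2+ cells (-0.38 to 0.56). Its smallest adjusted p over the 12 comparisons was 0.38 in limma.

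Prkdc, the gene of the DNA-PK catalytic subunit, had group means from 6.04 in Vgamma2+ CD24+CD73- to 6.33 in Vgamma1.1+ CD24-CD73+ cells, and all 22 arrays lay between 5.90 and 6.51. Over the course its differences were 0.09 (95% interval -0.13 to 0.32) in Vgamma1.1+ and 0.10 (-0.14 to 0.34) in Vgamma2+ cells. Its smallest adjusted p, 0.194 in limma, was for the first step in Vgamma2+ cells, at 0.25 ± 0.12. Xrcc4, the partner of the ligase, had group means from 6.68 to 6.90, and its arrays lay between 6.48 and 7.07. Its course difference was -0.23 (-0.44 to -0.01) in Vgamma1.1+ cells, with an adjusted p of 0.119, and -0.03 (-0.26 to 0.20) in Vgamma2+ cells. The intervals of Prkdc and Xrcc4 over the course thus ended at -0.44 at the lowest, short of the differences of Xrcc6 and Lig4.

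Between the subsets, none of the 6 genes passed at any of the 3 stages in limma, where 2.05%, 0.0117% and 11.5% of all tested genes did. The nearest was Dntt at CD24-CD73+, lower in Vgamma1.1+ than in Vgamma2+ cells by -1.05 ± 0.42 (adjusted p = 0.122). At CD24+CD73+ Dntt differed by -0.98 ± 0.45 (adjusted p = 0.264) and at CD24+CD73- by -0.26 ± 0.45 (adjusted p = 0.907). Lig4 at CD24+CD73- was the only gene of the 6 with ranges apart there, from 6.20 to 6.76 in Vgamma1.1+ and from 6.94 to 7.63 in Vgamma2+ cells. Its difference was -0.87 ± 0.34 (adjusted p = 0.243), and 18.8% of all tested genes had ranges apart at this stage. A fit to these 2 groups alone gave the same difference an adjusted p of 0.0245. Xrcc6 had ranges apart at CD24+CD73+ (6.15 to 6.37 in Vgamma1.1+ against 5.25 to 6.15 in Vgamma2+ cells, the nearest values being equal as rounded), with a difference of 0.53 ± 0.27 (adjusted p = 0.282), as did 17.9% of all tested genes.

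The steps themselves were also compared between the subsets. None of the 6 genes passed in the difference of the first step, of the second step or of the course, where 0.0936%, 5.06% and 3.98% of all tested genes did. For the course, the difference was -0.79 for Dntt (95% interval -2.07 to 0.49), 0.69 for Lig4 (-0.27 to 1.65) and 0.05 for Xrcc6 (-0.71 to 0.81). These intervals are wide, and do not show that the falls were alike.

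Across the 22 arrays the genes that fell moved with each other: Pearson r was 0.888 between Dntt and Lig4, 0.869 between Xrcc6 and Lig4 and 0.786 between Dntt and Xrcc6. With each group's mean taken out, r was 0.041 between Dntt and Lig4, 0.230 between Dntt and Xrcc6 and 0.548 between Xrcc6 and Lig4 (0.445 without the 2 arrays of narrow spread). Between Xrcc5, Prkdc and Xrcc4 the within-group r was 0.767 (Xrcc5 and Prkdc), 0.714 (Xrcc5 and Xrcc4) and 0.770 (Prkdc and Xrcc4), and without the 2 arrays of narrow spread it was 0.771, 0.646 and 0.71. These points share the arrays and their normalisation, and the values are descriptions.

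The 5 tested genes most like each member over the 22 arrays were taken by Pearson r. For Dntt they were Gzma (r = 0.968), which encodes a granzyme, Tapt1, Ano6, Endou and Bivm. For Lig4 they were Tcf12 (r = 0.970), an E protein that binds E-boxes, Ccr9, the receptor for a chemokine of the thymus and gut, Ano6, Slc25a23 and Nck2. Over the course Tcf12 fell (-1.26 in Vgamma1.1+ and -1.36 in Vgamma2+ cells), and it passed at each step in both subsets. For Xrcc6 they were Desi1 (r = 0.976), Blmh, Cdk6, Rbmx and Coro7. The closest to Xrcc5 was Riok2 (r = 0.944), to Prkdc Exoc6 (r = 0.859) and to Xrcc4 Ipo11 (r = 0.835). The genes were picked from 8545 for their r, which carries no test.

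Other genes of end joining were read beside the members. Of 8 listed further factors 6 were tested, and none passed in the first step in either subset. Over the course Polm, a polymerase that fills gaps at the ends, rose by 0.40 in Vgamma1.1+ cells, and Poll, a related polymerase, rose by 0.40 in Vgamma2+ cells. Aplf, a scaffold that binds Ku, fell in both (-0.45 and -0.73). Each subset thus had 1 higher and 1 lower of 6, with medians of 0.08 and 0.06, where 9.71% of all tested genes rose and 13.6% fell in Vgamma1.1+ cells and 11.1% and 12.9% did in Vgamma2+ cells. In the second step 1 of 6 passed, in Vgamma2+ cells (Aplf, -0.54), where 9.91% of all tested genes fell. At CD24-CD73+ 2 of 6 were higher in Vgamma1.1+ than in Vgamma2+ cells, Aptx (0.46), which repairs failed ligations, and Polm (0.30). Of all tested genes 11.5% passed between the subsets at this stage, in either direction.

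Among 11 tested genes of the break response, which mark and hold broken ends, none passed in either step of either subset. Over the course 4 fell in Vgamma1.1+ cells, with the largest differences for Hmgb1 (-1.34), a DNA-bending protein that aids RAG cutting in vitro, and H2ax (-0.85), the histone phosphorylated beside breaks. In Vgamma2+ cells 2 fell, Hmgb1 (-1.26) and Trp53bp1 (-0.46), and Nbn rose (0.87). The list had medians of -0.25 and -0.08, beside -0.04 and -0.03 over all tested genes. Of all tested genes 13.6% fell and 9.71% rose over the course in Vgamma1.1+ cells, and 12.9% fell and 11.1% rose in Vgamma2+ cells.

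Other repair routes were read from 2 lists. Of 3 tested genes of alternative end joining, 3 fell over the course in Vgamma1.1+ cells, among them Polq (-0.83) and Parp1 (-0.74), and 1 in Vgamma2+ cells, Polq (-0.90). Of 8 tested genes of homologous recombination, which copies an intact strand, 5 fell over the course in each subset, with Brca2 (-1.08) and Bard1 (-1.07) leading in Vgamma1.1+ and Rad51ap1 (-1.21) and Brca1 (-0.89) in Vgamma2+ cells. Over all tested genes 13.6% and 12.9% fell over the course. In the first step 1 of these 8 fell in Vgamma1.1+ cells (Brca2, -0.48), where 3.45% of all tested genes fell. In Vgamma2+ cells 2 rose in that step (Brca1, 0.37, and Bard1, 0.46). The share of all tested genes that rose there is not given here. In the second step 4 and 5 of the 8 fell, against 6.92% and 9.91% of all tested genes.

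**Figure D3:**
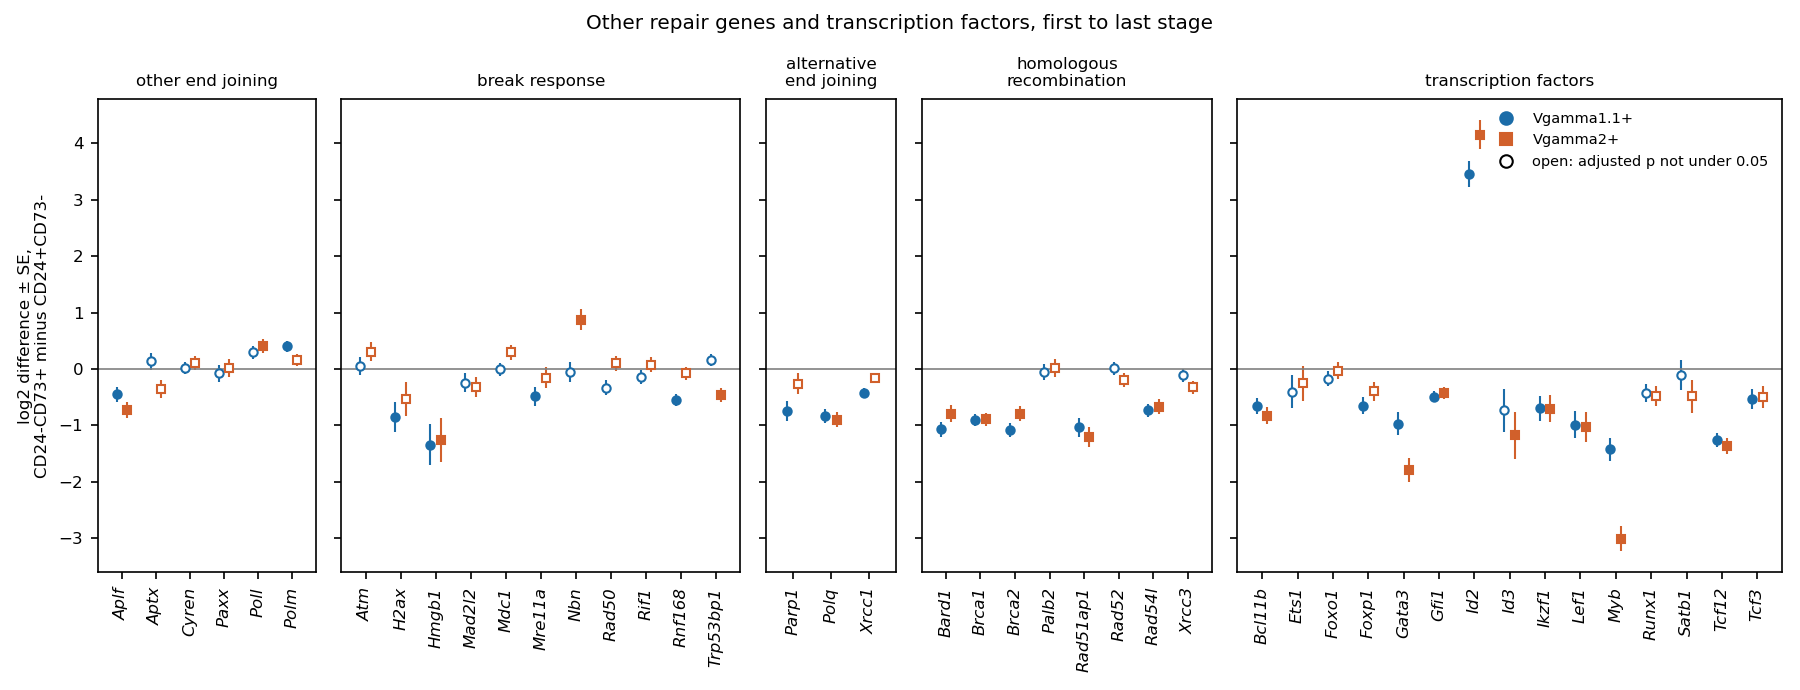
Log2 difference from CD24+CD73- to CD24-CD73+ (y axis, ± SE) for the tested genes of 5 lists (x axis) in Vgamma1.1+ (circles) and Vgamma2+ (squares) cells. Filled symbols had an adjusted p under 0.05 in limma. Most end-joining and break-response genes lie within 1 of 0, 5 of 8 homologous recombination genes are lower in each subset, and Id2 is the single factor that rose, by 3.45 and 4.15.

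The RAG locus and its regulators were described through neighbouring genes and transcription factors. Of 3 tested genes beside Rag1 and Rag2, Traf6 and Commd9 did not pass in any step, and Prr5l rose by 2.67 in the first step in Vgamma1.1+ and by 1.76 in Vgamma2+ cells, and fell in the second (-1.81 and -1.20). Of 15 tested transcription factors reported to act on the RAG genes, 9 fell and 1 rose over the course in Vgamma1.1+ cells, and 8 fell and 1 rose in Vgamma2+ cells. Over all tested genes 13.6% fell and 9.71% rose in Vgamma1.1+ cells, and 12.9% fell and 11.1% rose in Vgamma2+ cells. The factor that rose was Id2, an inhibitor of E proteins, by 3.45 ± 0.23 and 4.15 ± 0.25. Myb, which acts in early T cell development, fell (-1.43 and -3.01), and its course differed between the subsets (1.58 ± 0.30, adjusted p = 0.00217). Gata3, a factor of T cell commitment, fell as well (-0.97 and -1.79). The list had medians of -0.65 and -0.50, beside -0.04 and -0.03 over all tested genes.

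Markers of other cells were read beside these falls. Alpha-beta lineage thymocytes also carry Dntt, and 5 of 7 listed markers of them had a probe set of their own. Their mean log2 was 5.31 to 6.51 at CD24+CD73-, 4.44 to 4.63 at CD24+CD73+ and 4.71 to 4.73 at CD24-CD73+ in Vgamma1.1+ cells. In Vgamma2+ cells it was 5.02 to 5.38, 4.45 to 4.96 and 4.59 to 4.92. The list was thus highest at the first stage, as Dntt was. Over the 22 arrays its mean had a Pearson r of 0.752 with Dntt, 0.669 with Lig4 and 0.663 with Xrcc6. With Xrcc4, Xrcc5 and Prkdc the r was 0.316, 0.118 and -0.363. Of the 4 tested genes of the list, 3 fell in the first step in Vgamma1.1+ cells (most Cd8b1, -2.29, and Cd8a, -1.63). In Vgamma2+ cells 2 fell (Arpp21, -1.69, and Cd8b1, -0.93). Over all tested genes 3.45% and 6.41% fell in this step.

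Cd4, the coreceptor of alpha-beta thymocytes, was left out by the filter, with group means of 3.45 to 4.17 and a highest value of 5.31. Ptcra, which encodes the pre-T-cell-receptor alpha chain, passed in no step and had group means of 4.84 to 5.24. Arpp21 fell over the course (-2.91 and -2.88), whereas Cd8b1 rose again in the second step (1.18 and 0.79). The highest mean of the list, 6.51, was on replicate 1 of Vgamma1.1+ CD24+CD73-. On this array Dntt read 8.78, within the range of its group, and Rag2 read 3.81, its highest value. Without this array the first step in Vgamma1.1+ cells was -3.80 for Dntt (adjusted p = 2.5e-05, limma) and -1.53 for Lig4 (adjusted p = 0.0116), and the course of Xrcc6 was -1.24 (adjusted p = 0.00129). The other first-stage arrays also lay above all later arrays in the mean of this list (5.02 to 5.43 against 4.44 to 4.96). Leaving out 1 array therefore cannot decide the part of other cells in the first-stage levels, which was not tested.

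Genes of mitosis and replication were read by step as well. Of 10 tested genes none fell in the first step, and 1 rose there in Vgamma2+ cells. All 10 fell in the second step in both subsets, against 6.92% of all tested genes in Vgamma1.1+ and 9.91% in Vgamma2+ cells. The mean log2 of the list ran from 7.73 to 7.86 at CD24+CD73-, 7.43 to 7.59 at CD24+CD73+ and 6.18 to 6.59 at CD24-CD73+ in Vgamma1.1+ cells. In Vgamma2+ cells it ran from 7.13 to 7.27, 6.93 to 7.44 and 5.45 to 5.99. Over the 22 arrays the Pearson r with the mean of this list was 0.780 for Xrcc6, 0.710 for Lig4 and 0.644 for Dntt. It was 0.395 for Xrcc4, 0.316 for Xrcc5 and 0.185 for Prkdc. The part of this list in the falls was not tested. The means of the B cell list ran from 4.35 to 5.09 over all arrays, and from 4.82 to 5.09 in Vgamma2+ CD24-CD73+ cells. Those of the myeloid list (3.69 to 4.55) lay near or under the median of the table (4.55) on all arrays. In the first step none of 3 tested B cell genes passed, and of 3 tested myeloid genes none passed in Vgamma1.1+ cells. In Vgamma2+ cells the 3 myeloid genes rose, with a median of 0.83 beside -0.05 over all tested genes. The share of all tested genes that rose in the first step is not given here. The list of early T precursor markers had means that rose by stage, from 4.44 to 4.66, 4.78 to 4.89 and 4.95 to 5.12 in Vgamma1.1+ cells. In Vgamma2+ cells they ran from 4.53 to 4.61, 4.86 to 5.09 and 5.21 to 5.31. The Pearson r with this mean over the 22 arrays was -0.793 for Dntt, -0.858 for Lig4 and -0.876 for Xrcc6. For Xrcc4, Xrcc5 and Prkdc it was -0.399, -0.225 and 0.101. Its 6 tested genes were Kit, Il2ra, Cd44, Lyl1, Hhex and Bcl11a. Over the course 3 of the 6 rose in each subset and 1 fell in Vgamma1.1+ cells. Of all tested genes 9.71% and 11.1% rose over the course. Which cells carried the transcripts of these lists was not tested.

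**Figure D4:**
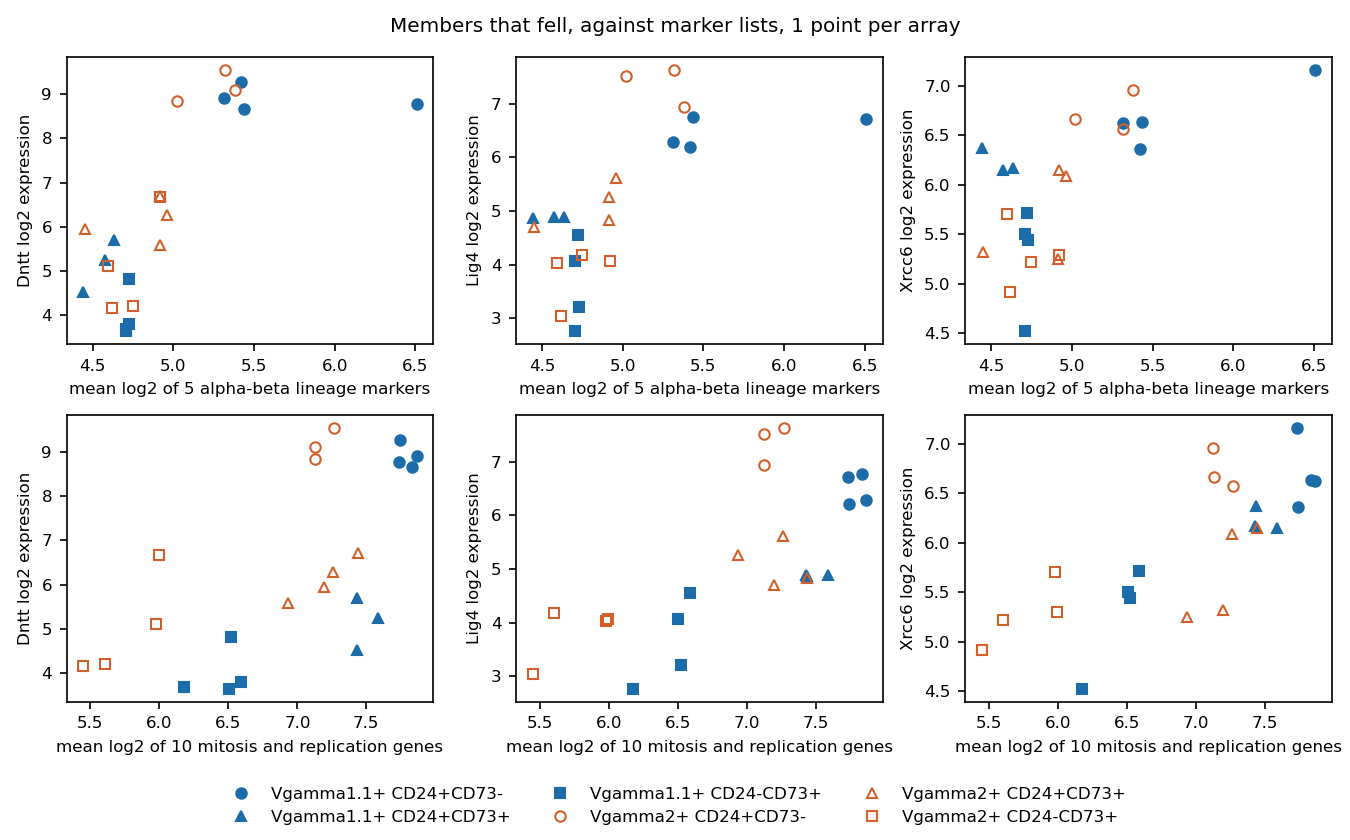
Log2 expression of Dntt, Lig4 and Xrcc6 (y axis, 1 point per array) against the mean log2 of 5 alpha-beta lineage markers (upper panels, x axis) and of 10 mitosis and replication genes (lower panels, x axis), with symbols by subset and stage. The first-stage arrays are highest for Dntt and Lig4, and their alpha-beta marker means (5.02 to 6.51) exceed those of the later stages (4.44 to 4.96). The middle-stage arrays have mitosis means of 6.93 to 7.59 and Dntt values of 4.51 to 6.71, and a link between them was not tested.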

How the data were processed

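Total RNA of sorted thymocytes was measured on 22 arrays, 1 per sample, in 6 groups. The deposited values are log2 expression per probe set, made by the authors with RMA in the oligo package, per the submitters' processing notes; versions and the genome build are not given in the sources used here. Of 16755 probe sets 14996 list 1 gene symbol, 1019 several and 740 none; the first kind was used, with the highest mean probe set for each of 135 genes that had more than 1. Genes over the table's median (4.55) on at least 3 arrays were tested.

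The model, fitted with limma 3.58.1 (R 4.3.3) to all 22 arrays, had a mean for each group and moderated variances, and the fit was tested on simulated data. P-values are two-sided and adjusted by Benjamini-Hochberg over the 8545 genes of each of 12 comparisons, with calls at 0.05. Errors of differences are SE and errors of means SD; 95% intervals are not adjusted. The number of arrays limits the precision.

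The genes and lists were chosen with earlier results of these data known, and no list was tested as a set. From a list at most 2 called genes in each direction were named per comparison, by size, with Cd3d, Ptcra, Cd4, Gata3, Traf6 and Commd9 added after their values were seen. Replicate numbers are shared by the groups, but whether they pair the samples is not described. Deviations of same-numbered samples had a median r of -0.16 over 51 pairs of samples (-0.67 to 0.56), against 0.042 over 150 pairs of unlike number. These values cannot settle whether the samples were paired. The 10 alternatives were a replicate block, no filter and a stricter filter (5.46), trend and robust moderation, a fit to the groups compared, array weights, cyclic loess, the mean over probe sets, leaving out both arrays of narrow spread, and the array SD as a covariate; each array was also left out in turn. Promoters came from RefSeq (GRCm38.p6), where 8 of the 9 genes had an entry, without Prkdc.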

Additional observations from a re-analysis of the deposited data

Results flagged for a closer look

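In 4 of 24 sets of 4 arrays (6 genes in 4 groups) a single array stood apart from the others by Dixon's criterion, which chance meets in about 1 of 20 sets. In Vgamma1.1+ CD24-CD73+ cells Dntt read 4.81 on replicate 2 and 3.64 to 3.80 on the other 3 arrays. In the same group Xrcc5 read 5.79 and Prkdc 6.13 on replicate 1, against 6.94 to 7.04 and 6.39 to 6.41 on the others; that array has the narrowest spread of all 22. In Vgamma2+ CD24-CD73+ cells Lig4 read 3.04 on replicate 2 and 4.02 to 4.18 on the others.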

How the results depend on the processing

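The falls of Dntt and Lig4 in the first step, and of Dntt, Lig4 and Xrcc6 over the course, kept their direction and call in both subsets under all 10 alternatives and without any 1 array. Without 1 array each, Dntt ranged from -4.03 to -3.44 (Vgamma1.1+) and -3.23 to -2.85 (Vgamma2+) in the first step, and Xrcc6 from -1.54 to -1.14 and -1.59 to -1.33 over the course. The replicate block changed no member count or call (first step of Dntt in Vgamma1.1+ cells, -3.78).

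The second step in Vgamma1.1+ cells, with 2 called genes, gave 0 in a fit to the groups compared, without both arrays of narrow spread and with the array SD as a covariate, 3 with array weights (Dntt added, -1.48, adjusted p = 7.5e-04), and between 0 and 2 without 1 array. The second step in Vgamma2+ cells, with 1, gave 2 with array weights, without both narrow arrays (Dntt added, -1.28, adjusted p = 0.0436) and with the array SD (Xrcc6 added, -0.49, adjusted p = 0.0166), and between 1 and 2 without 1 array. The first step in Vgamma2+ cells, with 3, gave 4 with cyclic loess (Prkdc added) and 2 or 3 without 1 array, and that in Vgamma1.1+ cells, with 2, gave 3 with array weights (Xrcc6 added). Between the subsets, 1 gene (Lig4) was called at CD24+CD73- in a fit to those groups and 3 (Xrcc5, Prkdc, Lig4) with array weights, and 1 (Prkdc) at CD24-CD73+ with array weights. Of the 12 comparisons array weights called Xrcc5 in 1 and Prkdc in 2, and cyclic loess called Prkdc in 1 (first step in Vgamma2+ cells, 0.33, adjusted p = 0.0414). The estimate of array weights did not converge fully. The causes were not tested.

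Differences near 0 changed sign. That of Lig4 between the subsets at CD24-CD73+ was 0.068 with array weights and 0.12 without the narrow arrays (-0.48 to 0.12 without 1 array). The subset difference in the second step of Dntt was 0.092 with array weights, 0.061 with cyclic loess, 0.21 without the narrow arrays and 0.069 with the array SD (-0.39 to 0.47 without 1 array), and that of Lig4 ran from -0.26 to 0.33. For Xrcc6 without 1 array, the subset difference ran from -0.19 to 0.077 at CD24+CD73-, from -0.13 to 0.27 at CD24-CD73+ and from -0.089 to 0.31 over the course.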
